A study of Mus musculus with 2 samples.

Results

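The collagen gene family of mouse was taken as every protein-coding gene whose symbol has the form Col, a number, a and a number, which gave 44 of the 34745 genes counted in gastrocnemius, a muscle of the calf. The data are 1 RNA-seq library of genotype Cry2scko and 1 library of genotype Cry2flox/flox (Cry2flox), both from C57BL/6 mice aged 8 weeks. Cry2 encodes cryptochrome 2, a clock protein that represses its own activators. A floxed allele has Cre recognition sites in the gene, which both groups would share if Cry2scko derives from it. The labels do not spell out scko or name the Cre line, the cells in which it acts, the sex, the hour of collection or how many animals stand behind a library. Cry2 had 133 reads or 8.04 CPM in Cry2scko and 676 reads or 36.0 CPM in Cry2flox, a 4.46-fold lower level in Cry2scko. CPM is the read count scaled to library size, taken as the library total times its TMM scaling factor. Library totals were 16423884 reads in Cry2scko and 18909433 in Cry2flox.

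Collagens are proteins of 3 chains wound into a triple helix, and the class of a collagen is set by what its helices build. Fibrillar collagens form the ropes of tendon and of the connective tissue around muscle fibres, type IV forms the sheet of basement membranes, and FACIT collagens attach to the surface of fibrils. Type VI forms beaded filaments just outside the basement membrane of muscle, and its loss causes muscular dystrophy in humans. In muscle the fibrillar and type VI chains are made mainly by fibroblasts and tendon cells, whereas type IV chains are also made by vessels and fibres.

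Nothing was replicated, so every comparison describes this pair of libraries and no p-value is given. Ratios are Cry2scko over Cry2flox. Their 95% intervals are exact counting intervals, which cover counting error only and leave out variation between animals, dissections and library preparations. Amplified reads lacking molecular tags can stem from the same molecule, so even counting error may be wider than shown. A gene was called where the ratio was at least 2-fold, the interval excluded 1 and the mean was 1 CPM or more. In a whole muscle, fewer cells of a type and less RNA per cell cannot be told apart. Myofibre markers matched the labelled tissue, with the fast myosin Myh4 at 45667 CPM in Cry2scko and 50460 CPM in Cry2flox.

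Collagen transcripts were lower in Cry2scko as a family. Together the 44 genes held 35698 reads in Cry2scko and 58293 in Cry2flox, which is 0.217% and 0.308% of each library and a summed level 1.44-fold lower (log2 ratio -0.52, interval -0.54 to -0.51). Of the 44 members, 34 passed the mean of 1 CPM, and 33 of these had 1 CPM or more in both libraries. Under the 2-fold rule 4 were lower (Col1a1, Col11a1, Col12a1 and Col26a1), against 1.51% of the 12832 genes tested. Another, Col6a5, was higher, against 3.37% of all genes, and 29 were neither. In either direction that is 5 of 34, against 4.88% of all genes. Their median log2 ratio was -0.44, beside -0.00 over all genes tested, whose middle range between quartiles ran from -0.17 to 0.18.

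The difference was broad and mostly smaller than 2-fold. Of the 34 members, 26 had a log2 ratio below 0, against 50.5% of all genes, and 21 had an interval wholly below 1, against 17.3%. Only 1 of the 34, Col6a5, had an interval wholly above 1, against 16.3%, and 12 intervals spanned 1. Depth decides how often an interval can exclude 1, so well-counted genes were also taken alone. Among members with a mean of 50 CPM or more, 12 of 13 had a log2 ratio below 0, against 61.3% of the 2113 genes at that depth, and the same 12 had an interval wholly below 1, against 34.6%. Under the 2-fold rule 1 of the 13, Col1a1, was lower (0.426% of genes at that depth), 0 were higher (1.14%), and so 1 was called in either direction (1.56%). The exception was Col5a3. The median of those 13 was -0.50 and that of all genes at that depth -0.04.

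**Figure D1:**
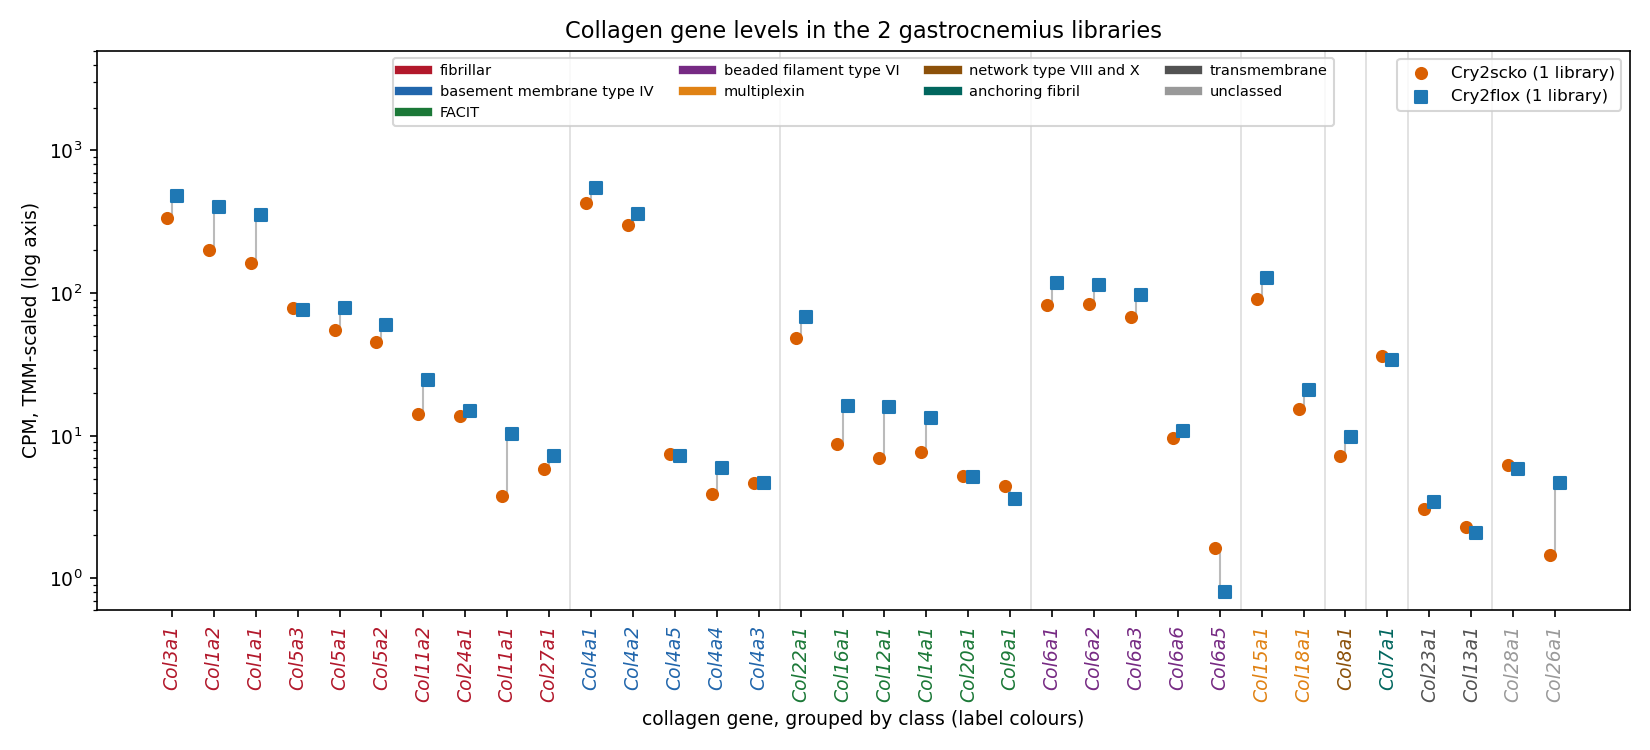
Level of each of the 34 collagen genes with a mean of 1 CPM or more, in TMM-scaled CPM on a log axis, grouped by class, with a circle for the Cry2scko library and a square for the Cry2flox library. The circle lies below the square for 26 genes, and the widest gaps among well-counted genes are those of Col1a1 and Col1a2.

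Fibrillar collagens had the lowest summed ratio of the classes, with 15167 reads in Cry2scko and 28283 in Cry2flox, a log2 ratio of -0.72 (-0.74 to -0.69). Of 11 members 10 were tested, 2 were lower (1.51% of all genes) and 8 neither, and 7 had an interval wholly below 1 (17.3% of all genes). The class median was -0.51. By sum, network types VIII and X (-0.58) and FACIT (-0.57) followed. By median, FACIT (-0.65) and the 2 members without a class (-0.78) were lower than fibrillar. In the fibrillar sum, Col1a1 and Col1a2 held 2684 and 3340 reads in Cry2scko and 6650 and 7508 in Cry2flox. The other fibrillar members with a mean of 50 CPM or more had log2 ratios of -0.52 to 0.05, so the class sum leans on type I. Both chains of type I collagen, the main fibril of tendon and of the sheaths around muscle, stood at the low end of the well-counted members. Col1a1 (ENSMUSG00000001506, GRCm38 chromosome 11, 94936224 to 94953042, plus strand) had 2684 reads or 162 CPM in Cry2scko, against 6650 reads or 354 CPM in Cry2flox. Its log2 ratio was -1.13 (-1.19 to -1.06), which put it among the lowest 1.12% of all genes tested. Col1a2 (ENSMUSG00000029661, chromosome 6, 4504814 to 4541544, plus strand) had 202 CPM in Cry2scko and 399.8 CPM in Cry2flox. At -0.99 (-1.04 to -0.93) it lay just inside 2-fold and was not called, while Col1a1 lay just outside.

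Type III collagen, which forms thinner fibrils together with type I, differed less. Col3a1, the most read fibrillar gene, had 335 CPM in Cry2scko and 479 CPM in Cry2flox, at -0.52 (-0.57 to -0.47). Type V collagen starts fibrils and limits their width, and its chains did not share a ratio. Col5a1 was at -0.50 (55.5 CPM in Cry2scko and 78.4 in Cry2flox) and Col5a2 at -0.39 (45.7 CPM in Cry2scko and 60.1 in Cry2flox). Col5a3, the chain of type V with the narrowest tissue range, had 79.0 CPM in Cry2scko and 76.2 CPM in Cry2flox, at 0.05 (-0.06 to 0.16).

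Type XI collagen has the same role in cartilage fibrils and was low in level here. Col11a1 (ENSMUSG00000027966, chromosome 3, 114030540 to 114220718, plus strand) had 63 reads or 3.81 CPM in Cry2scko and 194 reads or 10.3 CPM in Cry2flox, at -1.43 (-1.87 to -1.02). Col11a2 had 14.3 CPM in Cry2scko and 24.6 CPM in Cry2flox, at -0.78 (-1.02 to -0.55), and was not called. The long minor fibrillar chains Col24a1 (-0.13) and Col27a1 (-0.30) had intervals that spanned 1, so a difference was not detectable at this depth. Col24a1 had 226 reads in Cry2scko and 280 in Cry2flox, and Col27a1 97 in Cry2scko and 136 in Cry2flox. Col2a1, the collagen of cartilage, had 6 reads in Cry2scko and 20 in Cry2flox and did not reach the mean of 1 CPM. Cartilage and bone markers were at or near 0 in both libraries, with a summed level of 0.665 CPM in Cry2scko and 0.959 CPM in Cry2flox, 0 of 9 past the filter, and Ibsp, Matn1 and Sost at 0 reads in both.

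**Figure D2:**
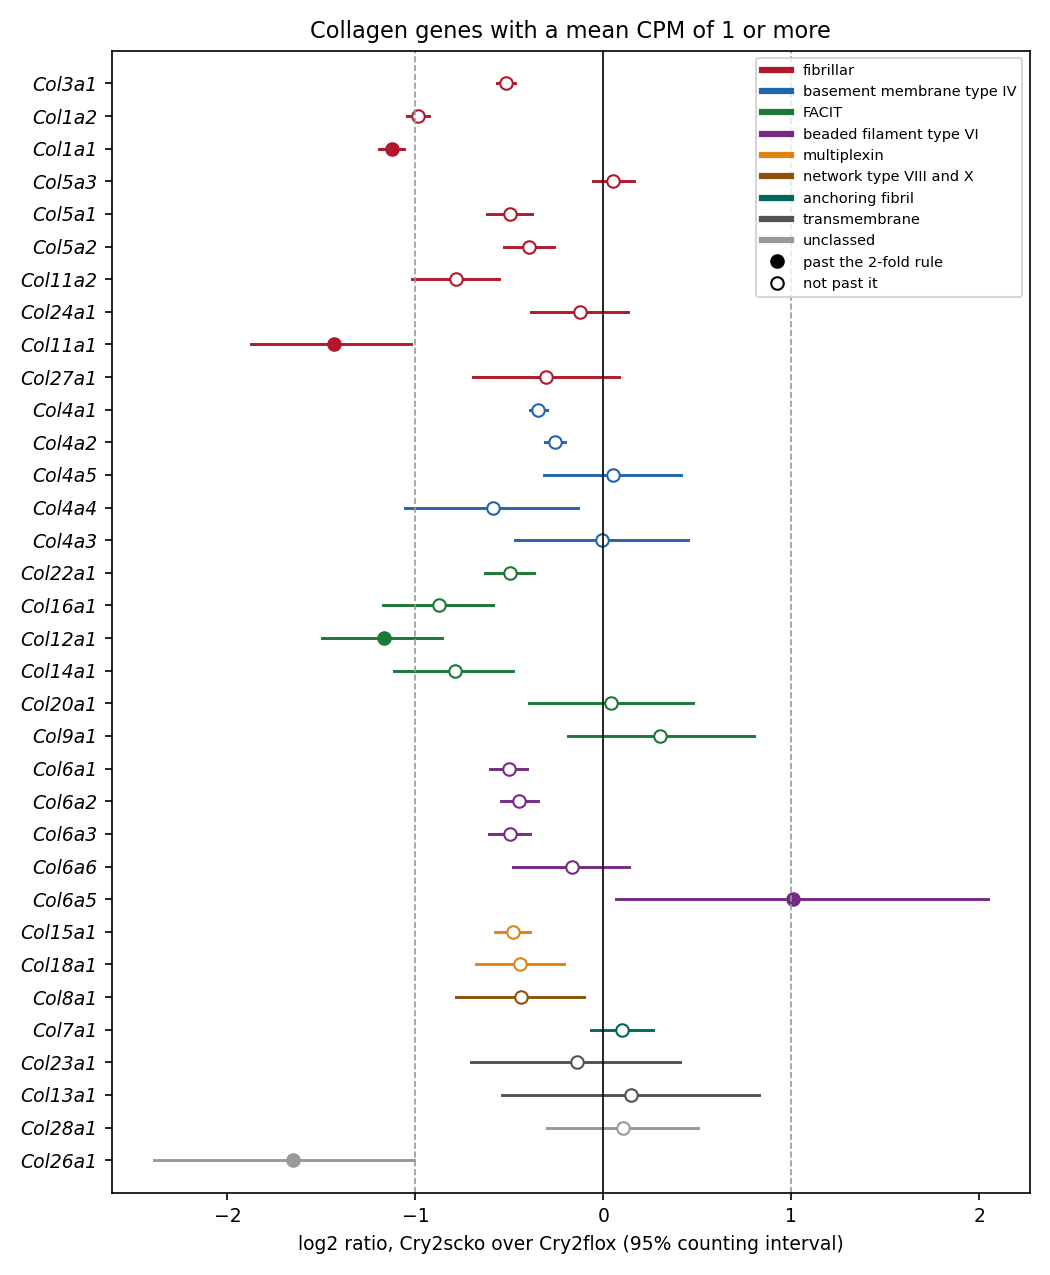
Log2 ratio of Cry2scko over Cry2flox for the 34 collagen genes with a mean of 1 CPM or more, coloured by class, with 95% counting intervals as bars and dashed lines at 2-fold. Filled points are the 5 genes past the 2-fold rule, Col1a1, Col11a1, Col12a1 and Col26a1 on the lower side and Col6a5 on the higher side.

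Promoters of 35 of the 44 members were matched in a RefSeq table for GRCm38.p6 that gives 250 bases before and 50 after a start site, in 38 windows since some genes have several. Col1a1, Col12a1 and Col26a1, which were called lower, had no entry, nor had Col2a1, Col4a3, Col5a2, Col9a3, Col14a1 and Col22a1. Start-site sequence is shown for fibrillar members that differ in ratio, Col11a1 (-1.43), Col3a1 (-0.52) and Col5a3 (0.05), and for the gap between the start sites of Col4a4 and Col4a3. The first 3 are the 250 bases before the RefSeq start on the strand of the gene, at chr3:114030290-114030539 (plus), chr1:45311288-45311537 (plus) and chr9:20815068-20815317 (minus). The gap is chr1:82586850-82586920, read on the minus strand as Col4a4 is. Capitals mark CCAAT (bound by the factor NF-Y) or its reverse complement, and TATAAA.
Col11a1: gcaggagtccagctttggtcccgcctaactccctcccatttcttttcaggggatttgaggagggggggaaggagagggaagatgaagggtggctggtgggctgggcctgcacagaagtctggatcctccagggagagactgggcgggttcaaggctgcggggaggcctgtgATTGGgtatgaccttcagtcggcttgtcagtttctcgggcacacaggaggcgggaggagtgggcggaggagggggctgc
Col3a1: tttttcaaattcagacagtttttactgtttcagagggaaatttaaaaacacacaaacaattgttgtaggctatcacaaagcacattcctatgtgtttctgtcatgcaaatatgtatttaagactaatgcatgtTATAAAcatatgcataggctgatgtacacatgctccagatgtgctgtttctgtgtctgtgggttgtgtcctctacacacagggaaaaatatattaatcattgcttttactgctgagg
Col5a3: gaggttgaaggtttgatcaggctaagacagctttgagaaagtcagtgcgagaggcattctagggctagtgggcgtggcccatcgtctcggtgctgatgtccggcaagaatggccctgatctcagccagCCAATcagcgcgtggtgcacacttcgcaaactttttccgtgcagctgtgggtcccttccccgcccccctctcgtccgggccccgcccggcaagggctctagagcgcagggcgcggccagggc
Col4a4-Col4a3 gap: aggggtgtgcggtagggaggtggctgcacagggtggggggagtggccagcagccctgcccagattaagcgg

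A CCAAT box starts 122 bases before the start of Col5a3, and its reverse complement starts 79 bases before that of Col11a1, so the motif was present in the fibrillar member with the lowest tested ratio and in the one with the highest. TATAAA was found 117 bases before the start of Col3a1. Over the full windows of 300 bases and both strands, CCAAT was in 13 of 38 member promoters (34.2%), against 37.4% of all 32851 promoters in the table, and TATAAA was in 5 (13.2%), against 13.6%. CACGTG, the E-box bound by the clock activators that CRY2 represses, was in 0 of the 38 windows, which include Col11a1 but none of the other called lower members, against 7.15% of all promoters. The looser E-box CANNTG, which includes CACGTG, was in 20 (52.6%), against 72.3%. These counts describe letters in short windows, and a match is not shown to be a bound site.

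Basement membrane type IV collagen was lower by less. Its summed level had a log2 ratio of -0.31 (-0.34 to -0.27), from 12348 reads in Cry2scko and 17349 in Cry2flox. Of 6 members 5 were tested, with 0 past the 2-fold rule (4.88% of all genes) and 3 intervals wholly below 1 (17.3% of all genes). Col4a1 (ENSMUSG00000031502, chromosome 8, 11198423 to 11312826, minus strand) had 431 CPM in Cry2scko, against 548 CPM in Cry2flox, and was the most read collagen in both. Its ratio was -0.35 (-0.39 to -0.30). Its partner Col4a2, which joins it in the common type IV trimer, had 299 CPM in Cry2scko and 357 CPM in Cry2flox, at -0.26 (-0.31 to -0.20). The same class holds chains known for the filters of the kidney and a few other membranes, and these were low in muscle. Col4a3 had 4.66 CPM in Cry2scko and 4.69 CPM in Cry2flox, at -0.01 (-0.47 to 0.45), and Col4a4 had 3.93 CPM in Cry2scko and 5.91 CPM in Cry2flox, at -0.58 (-1.05 to -0.13). Col4a5 had 7.50 CPM in Cry2scko and 7.24 CPM in Cry2flox, at 0.05 (-0.31 to 0.41).

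Type IV genes lie in head-to-head pairs. Col4a1 and Col4a2 overlap by 22 bases at their starts on opposite strands, Col4a3 and Col4a4 are 71 bases apart, and Col4a5 and Col4a6 are 1308 bases apart on chromosome X. Col4a1 and Col4a2 had log2 ratios 0.09 apart (difference -0.09, counting interval -0.16 to -0.02). The difference of Col4a3 from Col4a4 was 0.58 (-0.05 to 1.20), an interval that included 0. Col4a6 had 6 reads in Cry2scko and 17 in Cry2flox and was not tested.

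FACIT collagens split within the class. Of 9 members 6 were tested, 1 was lower (1.51% of all genes) and 5 neither, and 4 intervals lay wholly below 1 (17.3% of all genes). The median was -0.65, or -0.15 with no filter, where members with few reads enter. Col12a1 (ENSMUSG00000032332, chromosome 9, 79598991 to 79718831, minus strand), which decorates type I fibrils in tendon and fascia, had 116 reads or 7.01 CPM in Cry2scko, against 297 reads or 15.8 CPM in Cry2flox, at -1.17 (-1.50 to -0.86). With 0.1 added to FPKM values its ratio was -0.98 and it was not called, while FPKM values with nothing added gave -1.15. Its relative Col14a1 was at -0.79 (7.74 CPM in Cry2scko and 13.4 in Cry2flox) and Col16a1 at -0.87 (8.77 CPM in Cry2scko and 16.1 in Cry2flox). Col22a1, a collagen of the junction between muscle and tendon, was the most read FACIT gene, with 48.3 CPM in Cry2scko and 68.3 CPM in Cry2flox, at -0.50 (-0.63 to -0.37). Col9a1, known from cartilage, was at 0.30 (-0.19 to 0.80), and Col20a1 at 0.04 (-0.39 to 0.47). Col20a1 shares 79 exon bases with BX649560.1 on the same strand, so its reads could be assigned to either.

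The core chains of type VI collagen had near-equal ratios. Of 6 members 5 were tested, 0 were lower (1.51% of all genes), 1 was higher (3.37% of all genes) and 4 neither. Col6a1 had 82.5 CPM in Cry2scko and 117 CPM in Cry2flox, at -0.50 (-0.60 to -0.41). Col6a2 was at -0.45 (83.6 CPM in Cry2scko and 114 in Cry2flox) and Col6a3 at -0.50 (68.3 CPM in Cry2scko and 96.4 in Cry2flox), so that none of the 3 core chains reached 2-fold. Col6a6, a chain that can stand in for Col6a3, was at -0.17 (-0.48 to 0.14). Col6a5, another such chain, had 27 reads or 1.63 CPM in Cry2scko and 15 reads or 0.799 CPM in Cry2flox, at 1.01 (0.07 to 2.05). It passed the filter only through the library in which it was high, and it was no longer called with 5 reads added (log2 ratio 0.86) or with 0.1 added to FPKM values (0.55). FPKM values with nothing added gave 1.05.

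Among the remaining classes the multiplexins resembled type VI in ratio. Col15a1, which ties basement membranes of muscle fibres and capillaries to the matrix around them, had 91.4 CPM in Cry2scko and 128 CPM in Cry2flox, at -0.48 (-0.58 to -0.39). Col18a1, the precursor of endostatin, was at -0.44 (-0.68 to -0.21), and Col8a1, a network collagen of vessel walls, at -0.44 (-0.79 to -0.10). Col7a1, which forms the anchoring fibrils of skin, had 36.2 CPM in Cry2scko and 33.8 CPM in Cry2flox, at 0.10 (-0.06 to 0.26). Transmembrane Col13a1, which acts at the neuromuscular junction, was at 0.15 (-0.54 to 0.83) on 38 reads in Cry2scko and 39 in Cry2flox, and Col23a1 was at -0.14 (-0.70 to 0.41). Col28a1, known from peripheral nerve, was at 0.10 (-0.30 to 0.50). Col26a1 (ENSMUSG00000004415, chromosome 5, 136741759 to 136883209, minus strand) had the lowest tested ratio of the family, with 24 reads or 1.45 CPM in Cry2scko and 87 reads or 4.63 CPM in Cry2flox, at -1.65 (-2.39 to -1.01).

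The 10 members under the mean of 1 CPM had 0 to 20 reads in Cry2scko and 0 to 29 in Cry2flox. The nearest to the threshold were Col6a4 (0.977 CPM on average), Col19a1 (0.959) and Col8a2 (0.954), with Col6a5 (1.22) just above it. Col8a2, the partner of Col8a1, had 6 reads in Cry2scko and 29 in Cry2flox, at -2.00 (-3.65 to -0.80), and Col2a1 was at -1.47 (-3.16 to -0.19). Both were past 2-fold with an interval that excluded 1, but were too low to be called. Col10a1, the collagen of growth plate cartilage, had 0 reads in both libraries, which allows up to 0.181 CPM in Cry2scko and 0.160 CPM in Cry2flox, taking 3 reads as the limit.

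Levels between genes were compared per length, with the FPKM values of the authors. The family summed to 264 FPKM in Cry2scko and 366 FPKM in Cry2flox. Type IV chains made up 40.6% of that level in Cry2scko and 35.8% in Cry2flox, and fibrillar chains 35.6% in Cry2scko and 41.3% in Cry2flox. Per length of the principal coding transcripts fibrillar chains were the larger class in both libraries, with 43.4% in Cry2scko and 49.4% in Cry2flox, against 31.3% in Cry2scko and 26.7% in Cry2flox for type IV. Again on FPKM, type VI took 13.1% in Cry2scko and 12.9% in Cry2flox, and multiplexins 4.25% in Cry2scko and 4.21% in Cry2flox. FACIT chains took 3.69% of FPKM in Cry2scko and 3.63% in Cry2flox. By gene, Col4a1 led on FPKM in both, with 61.6 FPKM in Cry2scko and 77.2 FPKM in Cry2flox. Per principal transcript it led in Cry2scko (65.6, with Col3a1 at 60.6) but not in Cry2flox (82.2, with Col3a1 at 85.6). Col1a1 took 8.94% of the summed FPKM of the family in Cry2scko and 13.9% in Cry2flox, and Col1a2 4.76% in Cry2scko and 6.70% in Cry2flox.

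**Figure D3:**
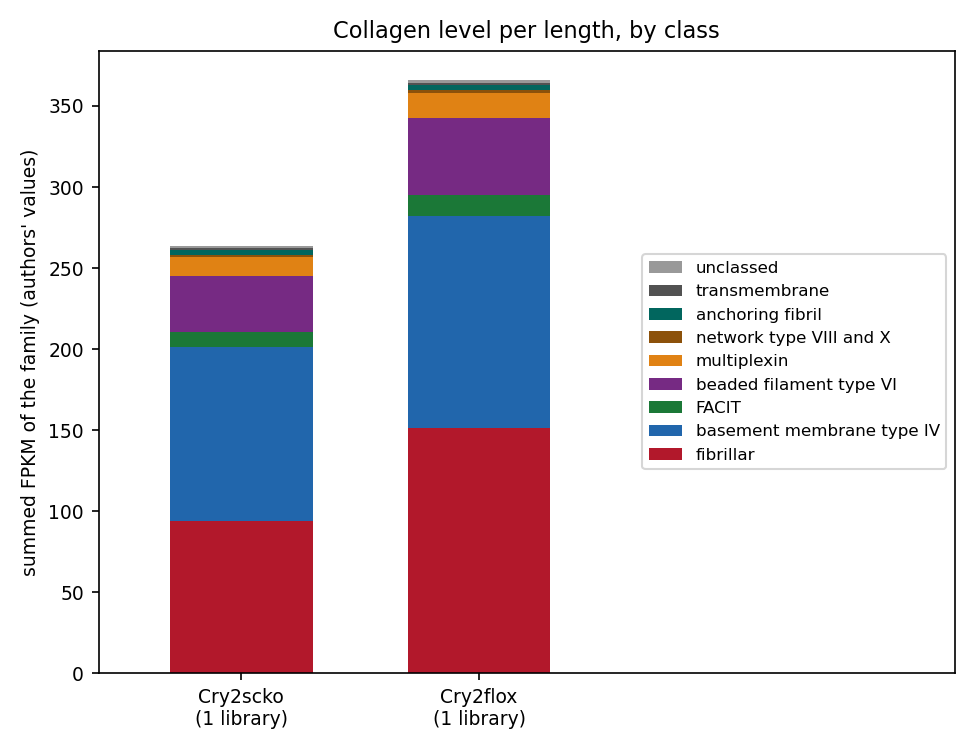
Summed FPKM of the 44 collagen genes in the Cry2scko library and the Cry2flox library, stacked by class. The bar reaches 264 FPKM in Cry2scko and 366 FPKM in Cry2flox, and the fibrillar part is 93.9 FPKM in Cry2scko and 151 FPKM in Cry2flox.

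FPKM levels depend on the gene models behind them. The length implied by the values of the authors is 16209 bases for Col1a2, while its principal coding transcript has 5348 bases, and for Col1a1 the lengths are 6934 and 5930. On FPKM, Col1a1 was 1.88 times Col1a2 in Cry2scko and 2.07 times in Cry2flox. Per length of the principal transcripts it was 0.725 times in Cry2scko and 0.799 times in Cry2flox. The order of these chains therefore turned with the length used. For Col4a1 over Col4a2 it did not, at 1.41 on FPKM, 1.28 per merged exon length and 1.41 per principal transcript in Cry2scko.

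Balance within chain pairs was followed as the share of the reads of the pair, which needs no length, with exact 95% counting intervals. In type I collagen, with 2 chains of Col1a1 to 1 of Col1a2 in the common trimer, Col1a1 took 44.6% (43.3 to 45.8) of the reads of the pair in Cry2scko and 47.0% (46.1 to 47.8) in Cry2flox. The difference of Col1a1 from Col1a2 in log2 ratio was -0.14 (-0.23 to -0.05). Col4a1 took 59.1% (58.2 to 59.9) of its pair with Col4a2 in Cry2scko and 60.5% (59.8 to 61.3) in Cry2flox. These share intervals overlapped slightly, but the interval on the difference in log2 ratio excluded 0 (-0.09, -0.16 to -0.02). Col6a1 took 49.7% (47.8 to 51.5) of its pair with Col6a2 in Cry2scko and 50.6% (49.1 to 52.1) in Cry2flox. Here the difference was -0.06 (-0.19 to 0.08), an interval that included 0. Col5a1 took 54.8% (52.4 to 57.2) of its pair with Col5a2 in Cry2scko and 56.6% (54.7 to 58.5) in Cry2flox. The difference of Col5a1 from Col5a2 was -0.10 (-0.28 to 0.07), which likewise included 0.

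Larger shifts appeared in other pairs. Col5a3 took 58.7% (56.6 to 60.8) of its reads with Col5a1 in Cry2scko and 49.3% (47.4 to 51.1) in Cry2flox, a difference of 0.55 (0.39 to 0.71) in log2 ratio. Col3a1 took 67.3% (66.3 to 68.4) of its reads with Col1a1 in Cry2scko and 57.5% (56.7 to 58.3) in Cry2flox, a difference of 0.61 (0.53 to 0.69). Type III was thus higher relative to type I in Cry2scko, although both were lower in themselves. For type XI, Col11a1 took 21.1% (16.6 to 26.1) of its reads with Col11a2 in Cry2scko and 29.6% (26.1 to 33.3) in Cry2flox.

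**Figure D4:**
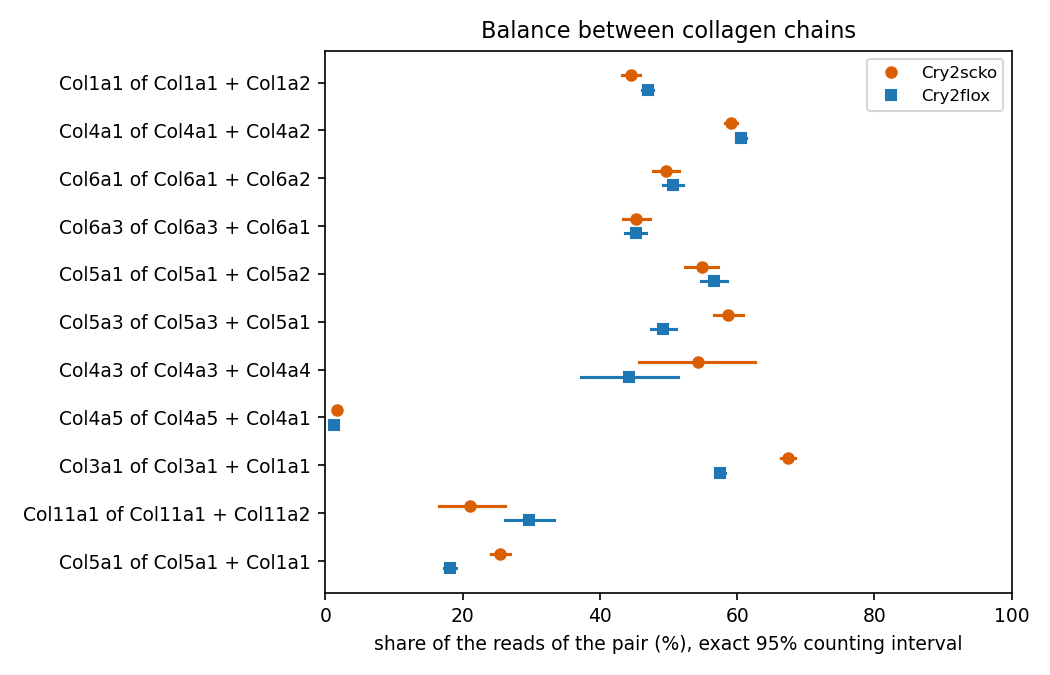
Share of the reads of a chain pair that fell on the first chain, in percent, with exact 95% counting intervals, as circles for the Cry2scko library and squares for the Cry2flox library. The symbols nearly coincide for Col6a1 with Col6a2 and for Col6a3 with Col6a1, and stand apart for Col5a3 with Col5a1 and for Col3a1 with Col1a1.

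Genes that act on collagen differed by step. Over all genes tested 4.88% were called, 1.51% lower and 3.37% higher. Enzymes and chaperones that fold and modify chains had 1 of 19 tested genes lower, 0 higher and 18 neither, with a median log2 ratio of -0.21. In this list 7 intervals lay wholly below 1 (17.3% of all genes) and 2 wholly above (16.3%). The lower gene was P3h3, of the prolyl 3-hydroxylase family, with 3.39 CPM in Cry2scko and 8.41 CPM in Cry2flox, at -1.31 (-1.78 to -0.86). P3h2, of the same family, went the other way at 0.90 (0.46 to 1.36) and was not called. P4hb, the shared subunit of prolyl 4-hydroxylase, was at -0.25 and Mia3, which loads procollagen for export, at 0.00. Among genes of propeptide cleavage 0 of 7 were called and their median was -0.61, with the protease Bmp1 at -0.25 and its enhancer Pcolce at -0.76 (-0.94 to -0.57). In the cross-linking list 0 of 5 were called and the median was -0.62, with Loxl2, a lysyl oxidase, at -0.63 and transglutaminase Tgm2 at 0.01.

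Proteins that assemble fibrils came nearest to the fibrillar chains. All 18 tested had a log2 ratio below 0 (50.5% of all genes) and 15 had an interval wholly below 1 (17.3% of all genes). Under the rule 5 were lower (1.51% of all genes) and 13 neither, and the median was -0.57. Fibromodulin (Fmod), which binds type I fibrils, had 29.9 CPM in Cry2scko and 70.0 CPM in Cry2flox, at -1.23 (-1.38 to -1.08). Postn was at -1.22, Kera at -1.14, Thbs4 at -1.08 and Comp, which binds fibrils of tendon and cartilage, at -2.20 (-3.08 to -1.48) on 17 reads in Cry2scko and 91 in Cry2flox. The most abundant, the collagen-binding protein Sparc, was at -0.52 (443 CPM in Cry2scko and 638 in Cry2flox), and decorin (Dcn) at -0.21.

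Breakdown and reception of collagen differed less in median than fibril assembly (-0.57), though more than folding and modification (-0.21). Matrix proteases, their inhibitors and uptake genes had 0 of 10 called and a median of -0.32, with the inhibitors Timp3 at -0.30 and Timp2 at -0.34. Of 12 collagen receptors 0 were called, at a median of -0.27, with the integrin subunit Itgb1 at 0.17 and the receptor kinase Ddr2 at -0.38. Transcription and growth factor genes that act on collagen genes gave 0 called of 16 and a median of -0.07, with Smad3 at 0.02 and Tgfbr2 at -0.23. Among these 16, 5 intervals lay wholly below 1 (17.3% of all genes) and 2 wholly above (16.3%). Other proteins with collagen repeats had 2 lower (1.51% of all genes), 2 higher (3.37% of all genes) and 15 neither of 19 tested, with a median of -0.18. The lower genes were the adipocyte hormone Adipoq at -1.27 and C1qtnf1 (4.23 CPM in Cry2scko and 8.52 in Cry2flox), and the higher ones the macrophage receptors Marco at 1.77 (352 reads in Cry2scko and 117 in Cry2flox) and Msr1 at 2.03 (30 reads in Cry2scko and 8 in Cry2flox). Msr1, at 1.81 CPM in Cry2scko and 0.426 CPM in Cry2flox, passed the filter only through the library in which it was high. Scara5, with the highest mean of that list, was at -0.38.

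Markers of cells that make collagen did not move alike. Tendon markers had 6 lower (1.51% of all genes) and 2 neither of 8 tested, 7 intervals wholly below 1 (17.3% of all genes), and 0 of 9 at 0 reads. Their summed level was 92.4 CPM in Cry2scko and 203 CPM in Cry2flox, and their median -1.15. The 2 not called were Chodl at -0.89 (-1.17 to -0.62) and the tendon factor Scx at -0.17 (-0.89 to 0.53). Scx had 32 reads in Cry2scko and 41 in Cry2flox, and Mkx did not pass the filter. Tenomodulin (Tnmd) had 5.86 CPM in Cry2scko and 14.1 CPM in Cry2flox, and Cilp2 3.81 CPM in Cry2scko and 8.57 CPM in Cry2flox. Fmod, Kera, Thbs4 and Comp stand in this list and in that of fibril assembly. Fibroblast and fibro-adipogenic progenitor markers had 0 of 11 past the rule (4.88% of all genes). For these, 5 intervals lay wholly below 1 (17.3% of all genes) and 2 wholly above (16.3%). The median was -0.09 and the summed level 663 CPM in Cry2scko and 728 CPM in Cry2flox. Their most abundant members, Gsn and Smoc2, were at -0.05 and -0.25. Adipocyte markers had 2 lower (Adipoq and Pck1, against 1.51% of all genes) and 5 neither of 7 tested. All 7 had a log2 ratio below 0 (50.5% of all genes), and 4 intervals lay wholly below 1 (17.3% of all genes). Adipocyte markers had 299 CPM in Cry2scko and 321 CPM in Cry2flox in sum and a median of -0.74. Fabp4, the most abundant, was at -0.02 and held 274 CPM of the sum in Cry2scko and 278 CPM in Cry2flox. The sums therefore say little about the other adipocyte markers. The part of these cells in the collagen ratios was not tested.

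Markers of vessels, nerve, immune cells and fibres were counted in the same way, beside 4.88% of all genes past the rule. Endothelial markers had 0 of 8 past the rule, a median of 0.12 and summed levels of 544 CPM in Cry2scko and 548 CPM in Cry2flox. They split, with 3 intervals wholly below 1 (17.3% of all genes) and 4 wholly above (16.3%). Mural and smooth muscle markers had 0 of 8 past the rule, a median of -0.13 and sums of 925 CPM in Cry2scko and 1017 CPM in Cry2flox. Of their intervals 4 lay wholly below 1 (17.3% of all genes) and 0 wholly above (16.3%). Schwann cell markers had 0 of 8, a median of -0.05 and sums of 188 CPM in Cry2scko and 196 CPM in Cry2flox. Macrophage markers had 0 of 7 and a median of 0.19 but split, with 3 intervals wholly below 1 (17.3% of all genes) and 1 wholly above (16.3%). Their sums were 113 CPM in Cry2scko and 98.3 CPM in Cry2flox. Of these Lyz2, at 0.55, held 68.4 CPM in Cry2scko and 46.7 CPM in Cry2flox, while Mrc1, the next most abundant, was at -0.39. Myofibre markers had 0 of 8 and a median of -0.08. Lymphocyte markers had 6 of 8 higher (3.37% of all genes), a median of 1.31 and sums of 96.8 CPM in Cry2scko and 38.1 CPM in Cry2flox. Of the marker lists, only cartilage and bone had a marker at 0 reads.

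**Figure D5:**
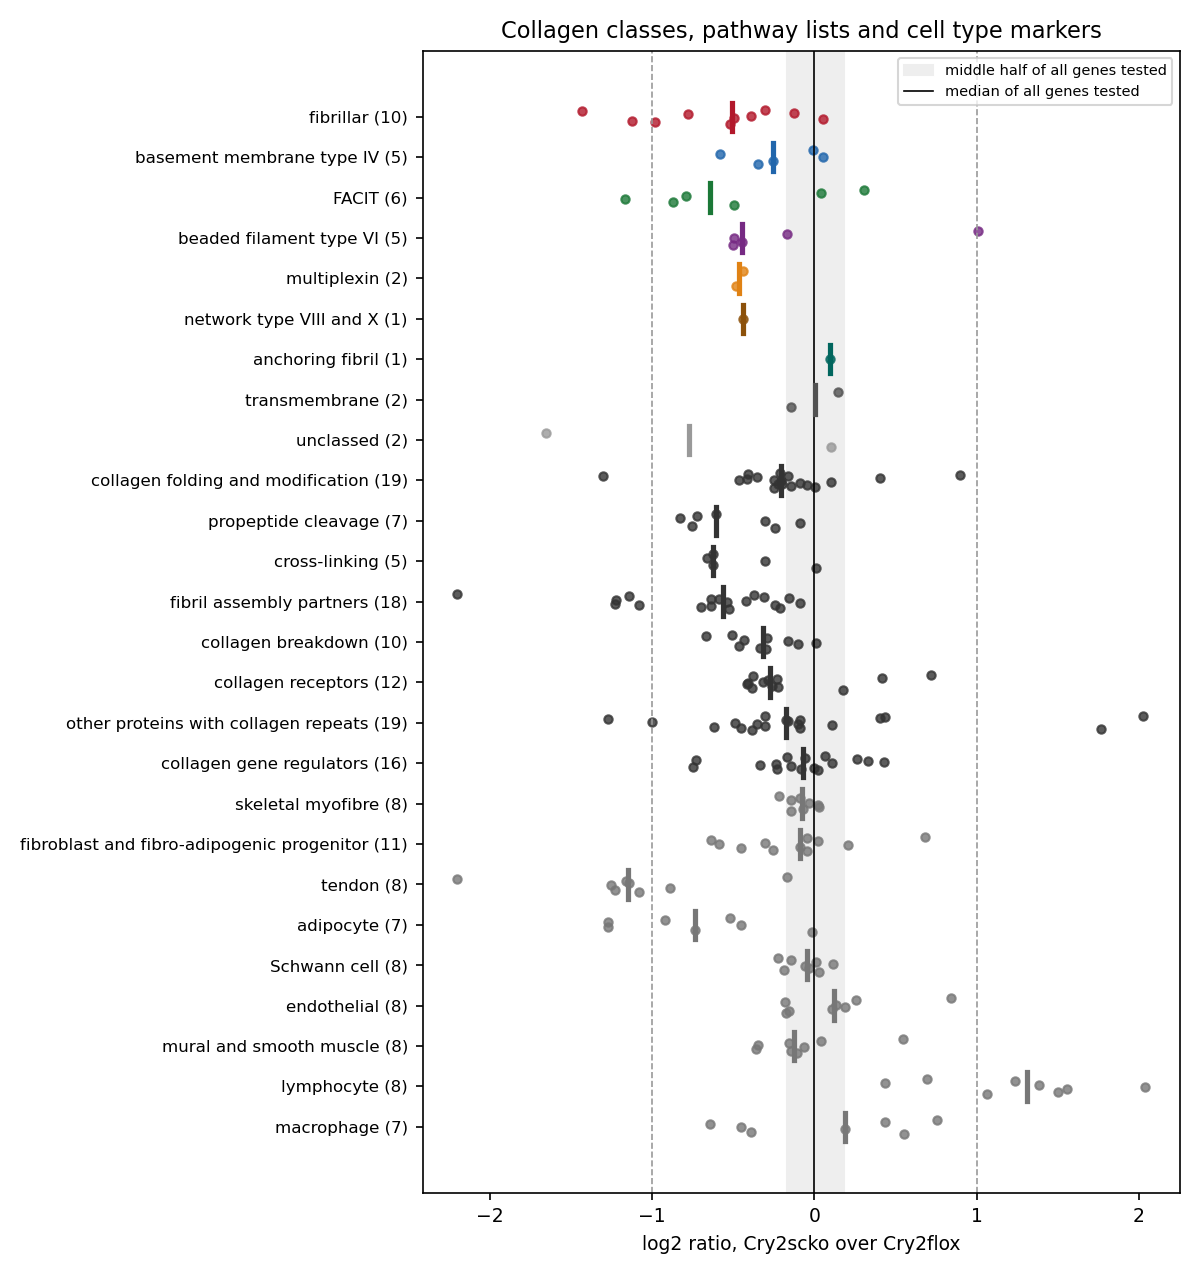
Log2 ratio of Cry2scko over Cry2flox for single genes with a mean of 1 CPM or more, by collagen class, by list of genes that act on collagen and by cell type marker list, with the number of genes in brackets. Thick bars are medians, the grey band holds the middle part of all 12832 genes between their quartiles (-0.17 to 0.18), and tendon markers have the lowest median (-1.15).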

How the data were processed

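Total RNA was made into libraries with a Vazyme VAHTS Universal V6 kit, per the labels' protocols. CASAVA, HISAT2 2.0.4, StringTie 1.3.0 and build GRCm38 are named in the submitters' processing notes; the read counter, annotation and strand setting are not given in the sources used here. Reads of genes that overlap on opposite strands therefore cannot be separated. Overlap touched 13 of 44 members, over at most 6.07% of their exon bases. The authors deposited raw read counts and FPKM values, per the file headers. Both imply the same gene length in each library for 100% of genes within 0.1 percent.

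Names and positions came from GENCODE M21 (GRCm38), which matched 34267 of 34745 identifiers. Ctgf was matched by its synonym. Reads of the others were 0.0354% in Cry2scko and 0.0378% in Cry2flox. Counts were scaled with TMM (edgeR 4.0.16, R 4.3.3; factors 1.01 for Cry2scko and 0.993 for Cry2flox). Log2 ratios used 0.5 added reads, and intervals are Clopper-Pearson (scipy 1.17.1, Python 3.11.15). Intervals on a difference of 2 ratios use the normal approximation to counting error. DESeq2 1.42.0 size factors, other filters, other additions and other gene lengths were alternatives. The procedure was run on counts simulated with counting error only, which cannot show how it fares with variation between animals. Outside the family, names were drawn from the genes past the rule and the 2 most abundant of each list. The tendon list was named in full, and P3h2 was named beside P3h3. Members and lists were chosen with earlier results of these data known.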

Additional observations from a re-analysis of the deposited data

How the results depend on the processing

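Total-count scaling, DESeq2 size factors and totals without mitochondrial and the 20 top genes left 4 members lower and 1 higher, and the median of all genes moved by less than 0.1. Over the 12832 genes tested they gave 180, 198 and 175 lower and 449, 428 and 455 higher, in that order. The count of higher members was 0 with 0.1 added to FPKM values, with a filter at 5 CPM and with 5 reads added. Genes higher in all were then 311 of 12832, 175 of 9565 and 365 of 12832. Col12a1 was lost with 0.1 added to FPKM values, which left 3 members lower, against 116 of 12832 genes. Adding 5 reads left 4 members lower, against 147 of 12832 genes. The filter at 5 CPM left 3 of 27 members lower, against 76 of 9565 genes, as Col26a1 (mean 3.04 CPM) fell under it. With no filter 6 of 43 members were lower, against 396 of 18571 genes, as Col8a2 and Col2a1 entered. FPKM values with nothing added, tried after seeing the data, gave 4 lower and 1 higher, against 188 and 454 of 12832 genes. A 1.5-fold threshold, looser by construction, gave 8 lower members of 34, against 558 of the 12832 genes tested. It gave 1 higher member, against 842 of all genes. Genes called in all, 626, became 1185 with no filter, 251 from a mean of 5 CPM, 1400 at 1.5-fold and 391 without genes sharing exon bases (an alternative chosen after seeing the data). They became 427 with 0.1 added to FPKM values and 512 with 5 reads added. The FACIT median was -0.15 with no filter, where members with few reads enter. With merged exon length the family summed to 280 FPKM in Cry2scko and 391 FPKM in Cry2flox. Then Col1a1 over Col1a2 was 1.52 in Cry2scko and 1.68 in Cry2flox, and Col4a1 over Col4a2 1.28 in Cry2scko and 1.36 in Cry2flox. With the length of principal coding transcripts, also chosen after seeing the data, the sums were 366 FPKM in Cry2scko and 524 FPKM in Cry2flox. Col1a1 over Col1a2 was then 0.725 in Cry2scko and 0.799 in Cry2flox, Col6a1 over Col6a2 0.950 in Cry2scko and 0.988 in Cry2flox, and Col5a1 over Col5a2 0.957 in Cry2scko and 1.03 in Cry2flox. No replicate could be left out, and no paired analysis was possible because each genotype has 1 library. Protein sequences were not used here, so the planned lengths and Gly-X-Y content of the chains are not given.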
